A study of Mus musculus with 9 samples.

Results

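The genes described here encode the proteins of the mitochondrial ribosome, the machine that translates the messages of the mitochondrial genome. They were taken from the array's gene annotation by symbol: every gene named Mrpl or Mrps followed by a digit, pseudogenes aside, and read by a probe set (several short probes designed to 1 transcript region) with that symbol alone. This gave 77 of the 19938 genes measured, 48 of them named Mrpl and 29 named Mrps. The rule itself uses no expression value, though the family was picked for description with earlier results of these data known. By current assignment 50 belong to the large subunit, 26 to the small subunit and 1, Mrps36, to neither. Mrps30 and Mrps18a carry small-subunit names but sit in the large subunit, and they were counted there. Mrpl53 shares its probe set with Ccdc142 and was not included.

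The study measured RNA of femoral bone marrow of C57BL6 mice on 9 Affymetrix whole-transcript arrays, 3 per group. The ERG leukemia group was whole marrow of 3 transgenic ERG mice, 1 mouse per array, taken once signs of myeloid leukemia had appeared. The wild type lineage-negative group was marrow depleted of mature, lineage-marked cells with a kit, from 9 mice in 3 pools of 3. The wild type whole marrow group was unfractionated marrow of 3 other mice, 1 per array. The promoter, species and insertion site of the ERG transgene and the ages of the mice are not stated in the labels used here. The leukemias carry the transgene in marrow that may also hold normal cells of the host. In bulk RNA of this kind, a change in the make-up of the cells and a change in RNA per cell cannot be told apart.

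Mitochondria keep their own small genome, which encodes core subunits of the respiratory chain and ATP synthase besides the ribosomal and transfer RNAs needed to translate them. All protein parts of the mitochondrial ribosome are encoded in the nucleus, made in the cytosol and imported, so many nuclear genes must supply 1 particle. Some of these proteins descend from proteins of the bacterial ribosome, 47 of the genes measured here, and the others, 29 here, were acquired during mitochondrial evolution. Human acute myeloid leukemia cells are known to rely on mitochondrial translation, whereas mature neutrophils hold few active mitochondria.

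Depth is not defined for arrays, and the 3 arrays per group limit the precision of every value. Array medians of intensity ran from 32.3 to 34.4, and the median over all probe sets and arrays was 33.4, which is used below as a mark of dim signal. Correlations between arrays of a group were 0.971 to 0.987 for ERG leukemia, 0.986 to 0.995 for lineage-negative marrow and 0.978 to 0.991 for whole marrow. On the log2 scale, Erg itself averaged 6.37 ± 0.21 in ERG leukemia, 6.80 ± 0.23 in the lineage-negative pools and 7.29 ± 0.30 in whole marrow (SD, n = 3 each). These probes may not read the transgene, so this does not check the labels. Whole marrow array 2 differed from the other whole marrow arrays in the sex-linked genes, with Xist at 4.32 and Eif2s3y at 8.53 on the log2 scale, so results are also given without it. These genes also differed between groups. Eif2s3y, which is Y-linked, was at 3.98 to 4.18 on the leukemia arrays and 7.89 to 8.23 on the lineage-negative arrays, and Xist was at 10.59 to 11.05 on the leukemia arrays and 8.80 to 10.07 on the lineage-negative arrays. The sex of the mice is thus not balanced between ERG leukemia and lineage-negative marrow. Nor is it balanced between the wild type groups, since whole marrow arrays 1 and 3 had Eif2s3y at 4.06 and 4.09. Leaving out whole marrow array 2 brings whole marrow nearer to ERG leukemia in these genes, but further from lineage-negative marrow. Leaving out 1 array does not remove the imbalance with lineage-negative marrow, and the part of sex in the results was not tested.

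Mitoribosomal genes were highest in lineage-negative marrow, intermediate in ERG leukemia and lowest in wild type whole marrow. That order of the 3 group means held for 70 of the 77 genes, or 90.9%, against 23.4% of all genes measured. The summed intensity of the 77 genes was 14787, 13955 and 15355 on the ERG leukemia arrays, 17358, 20291 and 15919 on the lineage-negative arrays, and 11106, 10501 and 9726 on the whole marrow arrays. Every leukemia array therefore lay below every lineage-negative array and above every whole marrow array. As a share of the summed intensity of all genes, the family took 0.489%, 0.485% and 0.519% in ERG leukemia, 0.576%, 0.681% and 0.553% in lineage-negative marrow, and 0.362%, 0.357% and 0.336% in whole marrow. These sums weigh bright probe sets most.

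Giving each gene the same weight, as its log2 distance from its own mean over the 9 arrays, the median gene stood at 0.08, 0.05 and 0.15 on the ERG leukemia arrays, at 0.30, 0.57 and 0.20 on the lineage-negative arrays, and at -0.36, -0.46 and -0.54 on the whole marrow arrays. The group means of these medians were 0.09 ± 0.05 for ERG leukemia, 0.36 ± 0.19 for lineage-negative marrow and -0.45 ± 0.09 for whole marrow (SD, n = 3 each). Lineage-negative array 2 stood above the other arrays of its group, with 76 of the 77 genes above their own mean. The spread of the family within a group was accordingly widest there. The median SD of a mitoribosomal gene was 0.208 among the lineage-negative arrays, against 0.101 for all genes in that group, while it was 0.136 and 0.153 among the ERG leukemia and whole marrow arrays, near the 0.127 of all genes in each.

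**Figure D1:**
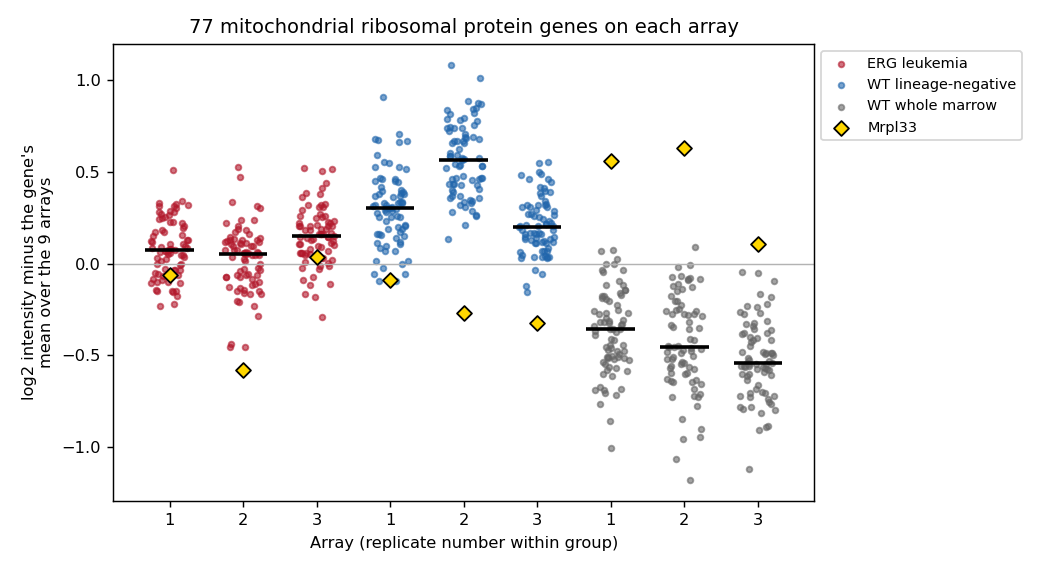
Each point is 1 of the 77 mitochondrial ribosomal protein genes on 1 array, as its log2 intensity minus its own mean over the 9 arrays (vertical axis); arrays run along the horizontal axis by group, and black bars are the median gene. The median lies at 0.05 to 0.15 on ERG leukemia arrays, 0.20 to 0.57 on lineage-negative arrays and -0.54 to -0.36 on whole marrow arrays, and Mrpl33 (diamonds) runs the other way.

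Promoters of these genes are shown because most of the family varied together over the groups while Mrpl33 did not. RefSeq promoter windows, from 250 bases before to 50 after the annotated start on GRCm38.p6, were found for 68 of the 77 genes, 74 windows in all. Mrpl52, Mrpl37 and Mrps27 are examples of genes that were higher in ERG leukemia than in whole marrow, and Mrpl33 is the exception. Each of the first 3 has a marked match below, and they do not typify the promoters of the higher genes. The 250 bases before the start are given 5′ to 3′ on the gene's strand. Capitals mark a match to CCGGAAG, the core bound by ETS factors, the family to which ERG belongs, which reads CTTCCGG on the other strand, or to CACGTG, the E-box bound by Myc with Max. Mrpl52 is at chr14:54426659-54426908 (plus strand), Mrpl37 at chr4:107066867-107067116 (minus strand), Mrps27 at chr13:99344536-99344785 (plus strand) and Mrpl33 at chr5:31613701-31613950 (plus strand).
Mrpl52: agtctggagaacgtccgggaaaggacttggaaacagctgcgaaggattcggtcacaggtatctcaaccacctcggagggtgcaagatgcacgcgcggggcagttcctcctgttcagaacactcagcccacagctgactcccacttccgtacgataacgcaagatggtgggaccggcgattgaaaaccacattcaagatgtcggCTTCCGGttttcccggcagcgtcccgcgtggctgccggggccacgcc
Mrpl37: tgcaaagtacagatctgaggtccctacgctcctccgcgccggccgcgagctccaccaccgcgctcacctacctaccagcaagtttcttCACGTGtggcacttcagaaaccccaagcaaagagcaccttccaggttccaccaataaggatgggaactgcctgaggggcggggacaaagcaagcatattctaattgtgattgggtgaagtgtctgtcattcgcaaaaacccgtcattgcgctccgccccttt
Mrps27: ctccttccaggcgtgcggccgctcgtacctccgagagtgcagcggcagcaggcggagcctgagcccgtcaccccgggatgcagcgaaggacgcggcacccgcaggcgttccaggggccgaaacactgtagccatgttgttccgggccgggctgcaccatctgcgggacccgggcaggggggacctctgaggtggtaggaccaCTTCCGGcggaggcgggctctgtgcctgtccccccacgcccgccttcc
Mrpl33: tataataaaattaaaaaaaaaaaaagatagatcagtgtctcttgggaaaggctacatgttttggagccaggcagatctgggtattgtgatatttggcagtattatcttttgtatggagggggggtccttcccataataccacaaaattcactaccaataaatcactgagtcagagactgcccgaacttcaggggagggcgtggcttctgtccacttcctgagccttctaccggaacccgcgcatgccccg
The ETS match shown for Mrpl52 begins 47 bases before the start, and a further match begins at base 3 after it, outside the stretch shown. That of Mrps27 begins 48 bases before the start. Mrpl33 has no match within the stretch shown, but 1 that begins 3 bases before the start and runs across it.

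Over all member windows, searched on both strands, CCGGAAG was present in 25 of 74, or 33.8%, against 11.6% of the 21263 windows of protein-coding genes and 8.86% of all 32851 windows. Of 29 such matches, 24 lay within 60 bases of the start. Positions were counted in the family's windows alone, so whether other genes differ in this is not known here. AAGATGGC, the core of the YY1 site, was present in 12, or 16.2%, against 3.05% of protein-coding windows and 2.75% of all. CACGTG was present in 7, or 9.46%, against 7.84% and 7.15%, but 3 of the 7 are overlapping windows of Mrpl2, and by gene 5 of 68 had it. The palindrome bound by NRF1, a regulator of nuclear genes for mitochondria, was present in 3, or 4.05%, against 1.33% and 0.971%. In 34 of the 74 windows, or 45.9%, none of the 4 motifs was present, against 78.7% of protein-coding windows and 82.1% of all. The family's windows were also richer in G and C, with a median of 58.5% against 56.3% in protein-coding windows and 52.7% in all, and richer in CpG, with a median of 21 against 13 and 7. A match describes these letters and is not a measured binding site.

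The first comparison asks how the leukemic marrow differs from normal unfractionated marrow. Of the 77 genes, 45 were higher in ERG leukemia than in whole marrow, 1 was lower and 31 did not pass the threshold, an adjusted p below 0.05 in limma's test with Benjamini-Hochberg adjustment over all genes. Among all 19938 genes, 14.6% were higher and 9.93% were lower at that threshold, 24.5% in all. The median log2 difference of the family was 0.53, or 1.44-fold, and its range was -0.63 to 1.45, while the median over all genes was -0.02. All 3 leukemia arrays lay above all 3 whole marrow arrays for 56 of the 77 genes, against 19.4% of all genes, and below them for 1, against 17.7%. The large subunit had 31 of 50 genes higher and 1 lower, with a median of 0.55, and the small subunit had 13 of 26 higher and none lower, with a median of 0.47. Genes of bacterial descent and genes specific to mitochondria did not stand far apart, with 27 of 47 and 17 of 29 higher. Without whole marrow array 2 the number higher was 40.

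The gene that differed most was Mrpl52, which encodes a large-subunit protein without a bacterial counterpart. Its intensity was 310.4, 354 and 365 in ERG leukemia, 348, 467 and 355 in lineage-negative marrow, and 127, 112 and 138 in whole marrow. The leukemia and lineage-negative arrays overlapped, and every whole marrow array lay far below both. ERG leukemia exceeded whole marrow by a log2 difference of 1.45 ± 0.13 (SE), which is 2.74-fold, with a limma adjusted p of 0.000538.

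Mrps18b, 1 of 3 mammalian relatives of bacterial ribosomal protein S18, came second, at 453, 283 and 389 in ERG leukemia, 518, 589 and 446 in lineage-negative marrow, and 197, 169.7 and 146 in whole marrow. The difference from whole marrow was 1.12 ± 0.19 (SE), a 2.17-fold higher level in ERG leukemia (limma adjusted p = 0.00374). The other relatives were less far from whole marrow. Mrps18a, the large-subunit member of the trio, was at 198, 199.7 and 192 in ERG leukemia and 115, 112 and 119.7 in whole marrow, a log2 difference of 0.77 ± 0.10 (limma adjusted p = 0.00152). Mrps18c gave 329, 351 and 419.9 in ERG leukemia and 343, 317 and 279.8 in whole marrow, so the groups overlapped, and its difference of 0.22 ± 0.13 did not pass (limma adjusted p = 0.277). All 3 genes answer to 1 bacterial protein, and only Mrps18a and Mrps18b passed the test. Whether the trio differed among themselves was not tested.

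Other large-subunit genes without a bacterial counterpart followed Mrpl52. Mrpl42 read 262, 278 and 344 in ERG leukemia, and 161, 115 and 146 in whole marrow, a log2 difference of 1.07 ± 0.17 (limma adjusted p = 0.00294). Mrpl38 read 150.3, 132 and 123 in ERG leukemia, and 74.1, 62.3 and 70.4 in whole marrow, a log2 difference of 0.97 ± 0.12 (limma adjusted p = 0.00128). Neither gene had overlapping groups. Mrps30, in the large subunit despite its name, differed by 0.86 ± 0.14 and Mrpl36, related to the smallest protein of the bacterial large subunit, by 0.82 ± 0.12. In the small subunit Mrps34, in which human variants cause a Leigh-type mitochondrial disease, was at 90.1, 70.3 and 92.7 in ERG leukemia and 44.7, 50.6 and 38.4 in whole marrow, a log2 difference of 0.92 ± 0.17 (limma adjusted p = 0.00562). Mrps28 differed by 0.83 ± 0.17 and Mrps5, a relative of bacterial S5, by 0.81 ± 0.12, both with limma adjusted p below the threshold. Mrps26 differed by 0.85 ± 0.22 (limma adjusted p = 0.0252), but its whole marrow mean of 27.3 was under the dim mark, and its call was lost when leukemia array 2 or 3 or whole marrow array 1 or 3 was left out, with adjusted p from 0.0644 to 0.0885. Mrps36, whose product is now assigned to the alpha-ketoglutarate dehydrogenase complex of the citric acid cycle, also rose, by 0.79 ± 0.15 (limma adjusted p = 0.00692). The smallest differences that passed without overlap of the arrays were 0.40 ± 0.09 for Mrpl49, 0.45 ± 0.12 for Mrps31, 0.46 ± 0.11 for Mrpl24 and 0.48 ± 0.13 for Mrps24. Mrpl49 kept its call in all 16 alternatives. Mrps31 lost it without leukemia array 2 or 3 or whole marrow array 2 or 3 (adjusted p 0.0657 to 0.0888), and Mrps24 without any 1 leukemia array or whole marrow array 1 or 3 (adjusted p 0.0519 to 0.0943). Rescaling by cyclic loess, which evens out intensity-dependent shifts, ended the calls of Mrps31, Mrpl24 and Mrps24, at limma adjusted p of 0.0746, 0.0847 and 0.17.

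**Figure D2:**
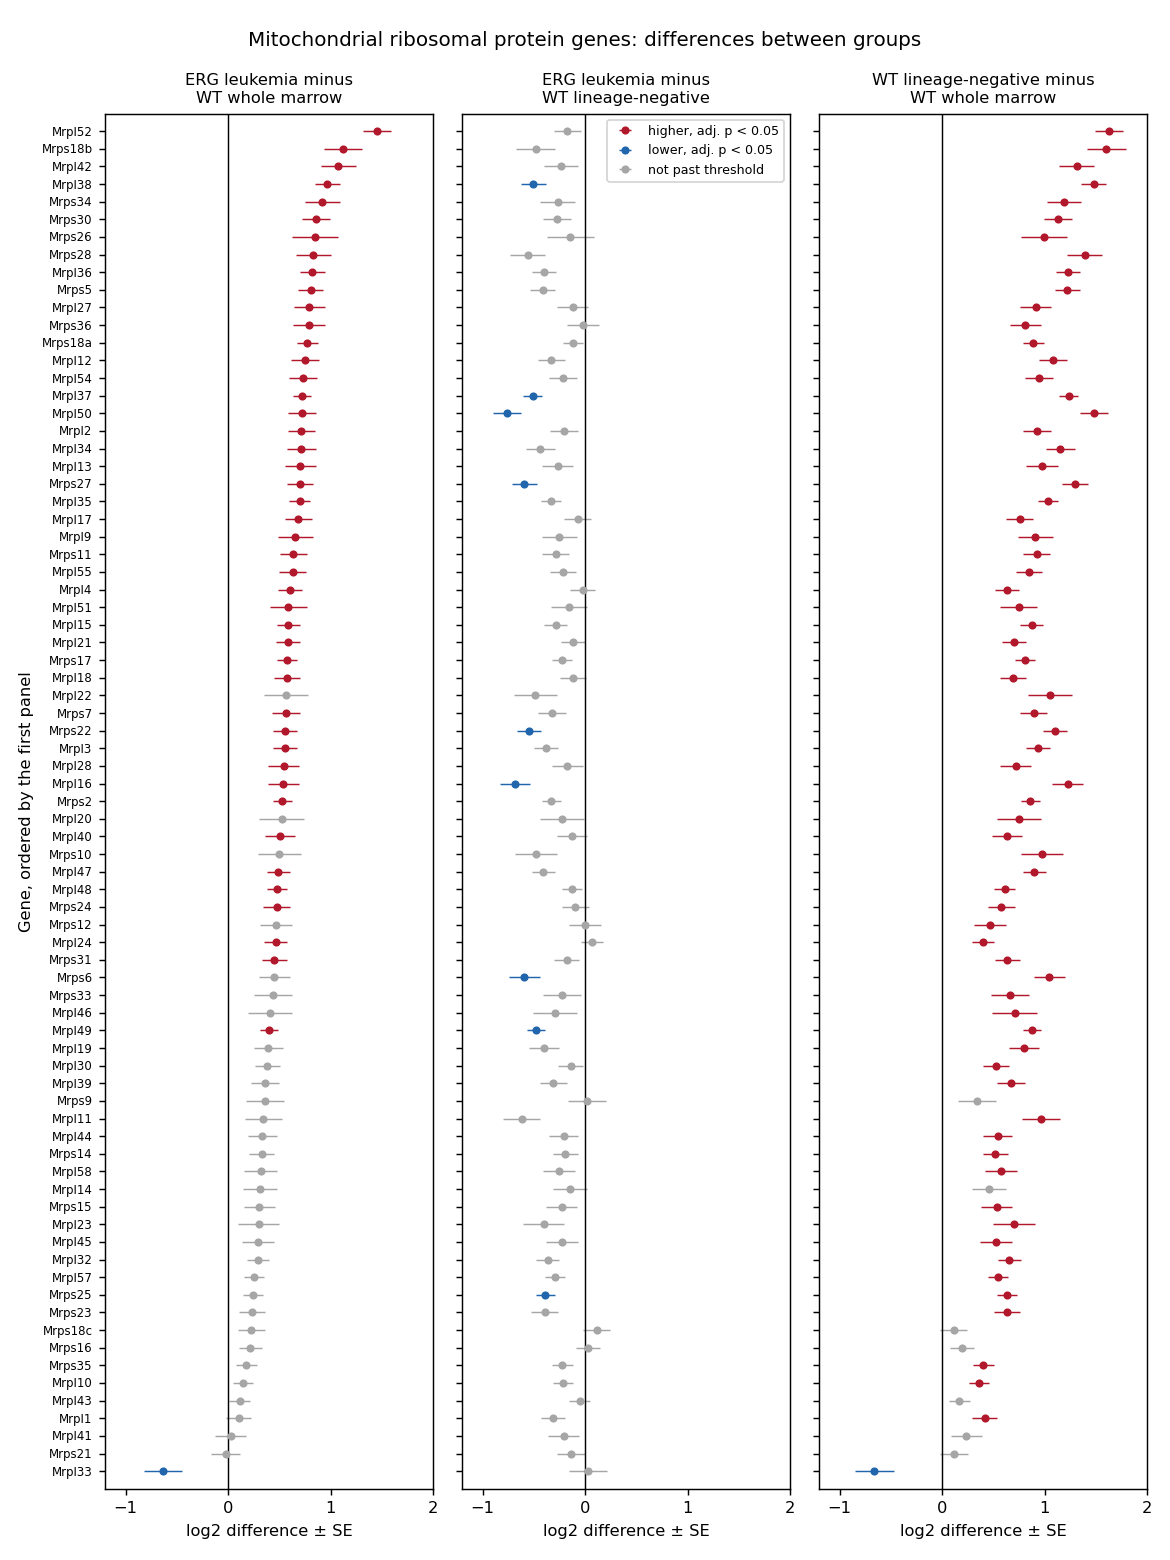
Log2 difference ± SE of all 77 genes in the 3 comparisons, ordered from top to bottom by ERG leukemia minus whole marrow; red points were higher and blue points lower at a limma adjusted p below 0.05, and grey points did not pass. In the left panel 45 genes are red and 1, Mrpl33 at the bottom, is blue; the middle panel has 9 blue and no red points; the right panel has 69 red points and 1 blue.

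The stalk is the flexible arm of the large subunit that recruits translation factors, and all 3 of its genes had positive differences, of which 1 passed. Whether they differed from each other was not tested. Mrpl12, the repeated protein of the stalk tip, was higher in ERG leukemia, at 112, 117 and 130.1 against 74.3, 74.5 and 65.1 in whole marrow, a log2 difference of 0.75 ± 0.14 (limma adjusted p = 0.0053). Mrpl10, which anchors Mrpl12 to the ribosome, gave 257, 223 and 227 in ERG leukemia and 213, 235 and 190.2 in whole marrow. Those groups overlapped, and the difference of 0.15 ± 0.10 did not pass (limma adjusted p = 0.346). Mrpl11, at the base of the stalk, ranged from 70.0 to 104 in ERG leukemia and from 64.4 to 79.8 in whole marrow, a difference of 0.34 ± 0.18 that did not pass either (limma adjusted p = 0.231). Mrps12, whose bacterial relative lines the decoding centre, differed by 0.46 ± 0.16 (limma adjusted p = 0.0633). Mrpl58, also known as Ict1, is a release factor built into the large subunit that frees stalled ribosomes, and it differed by 0.32 ± 0.16 (limma adjusted p = 0.198). Mrpl45, which holds the ribosome at the inner membrane, differed by 0.29 ± 0.16 (limma adjusted p = 0.228).

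Mrpl33, a relative of a small protein of the bacterial large subunit, was the exception. It read 150.0, 104 and 160.5 in ERG leukemia, 147, 129.6 and 125 in lineage-negative marrow, and 231, 242 and 169 in whole marrow. Whole marrow was thus highest, with no overlap with either other group, though whole marrow array 3 was near the brightest leukemia. ERG leukemia was 1.55-fold lower than whole marrow, a log2 difference of -0.63 ± 0.19 (limma adjusted p = 0.0384). This call depended on the arrays in the model. With the lineage-negative arrays left out of the model the adjusted p was 0.0835. It also missed the threshold on leaving out any 1 lineage-negative array, leukemia array 1 or 2, or whole marrow array 1 or 2, with adjusted p from 0.0523 to 0.121 and differences of -0.71 to -0.44. Mrps21, a relative of bacterial S21, was the only other gene with a negative value, at -0.03 ± 0.14 (limma adjusted p = 0.929), and its arrays overlapped in all 3 groups.

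**Figure D3:**
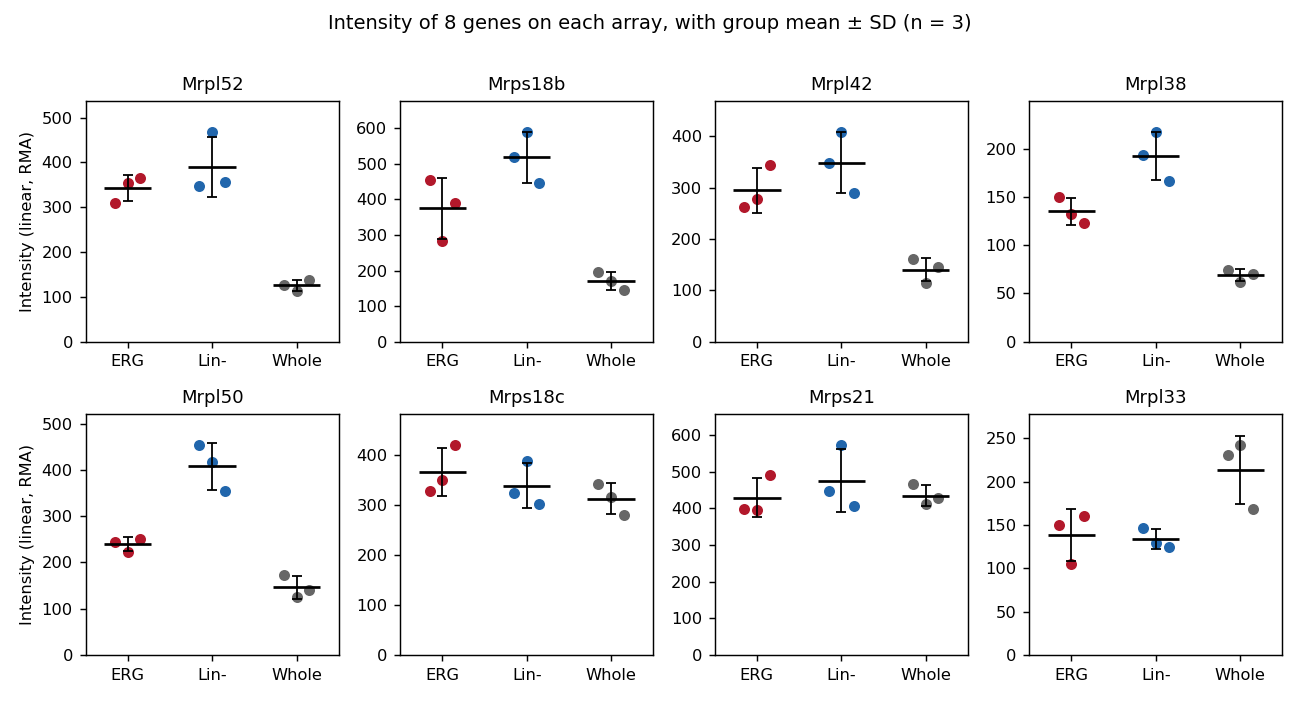
Linear RMA intensity of 8 genes on each array (points), with the group mean and SD (bars, n = 3), for ERG leukemia, lineage-negative marrow (Lin-) and whole marrow. Mrpl52, Mrps18b, Mrpl42, Mrpl38 and Mrpl50 have whole marrow lowest with no overlap, Mrps18c and Mrps21 overlap in all groups, and Mrpl33 has whole marrow highest.

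The second comparison sets ERG leukemia against lineage-negative marrow, the wild type fraction that holds stem and progenitor cells. No mitoribosomal gene was higher in ERG leukemia, 9 were lower and 68 did not pass limma's test at an adjusted p of 0.05, while 2.95% of all genes were higher and 5.74% lower, 8.69% together. At an unadjusted p below 0.05 the family had 0 higher and 31 lower, against 8.33% and 14.3% of all genes. The median log2 difference was -0.24, with a range of -0.76 to 0.11, and the median of all genes was 0.01. The leukemia arrays all lay below the lineage-negative arrays for 31 genes, against 16.3% of all genes, and above them for none, against 11.6%. The large subunit had 5 genes lower and the small subunit 4. Of the 9, 7 were among the 29 mitochondria-specific genes and 2 among the 47 of bacterial descent. That difference between the classes was not tested, and their median differences were close, at -0.24 and -0.25.

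This count rested on few arrays. It was 4 with the whole marrow arrays left out of the model, 4 without leukemia array 3, 3 without lineage-negative array 1, 5 without lineage-negative array 2 and 9 without whole marrow array 2. Leaving out lineage-negative array 2 also moved the median difference to -0.14. Only Mrpl37 kept its call in all 16 alternatives.

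Mrpl37, a mitochondria-specific protein of the large subunit, had 314, 306 and 306 in ERG leukemia, 429.8, 491 and 405 in lineage-negative marrow, and 204, 178 and 181 in whole marrow. The groups formed 3 separate levels with no overlap. ERG leukemia was 1.43-fold lower than lineage-negative marrow, a log2 difference of -0.51 ± 0.09 (limma adjusted p = 0.0123), and 1.65-fold higher than whole marrow, a difference of 0.72 ± 0.09 (limma adjusted p = 0.00131).

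Mrpl50, another mitochondria-specific large-subunit protein, was furthest below lineage-negative marrow. It gave 244, 223 and 252 in ERG leukemia, 453, 417 and 354 in lineage-negative marrow, and 174, 125 and 140.4 in whole marrow. These too were separate levels, and ERG leukemia was 1.7-fold lower than lineage-negative marrow (log2 difference -0.76 ± 0.14, limma adjusted p = 0.0125). Without lineage-negative array 1 the adjusted p was 0.0501.

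Mrpl16, whose bacterial relative sits near the peptidyl transferase centre, gave 206, 168 and 191 in ERG leukemia, 308, 349 and 254 in lineage-negative marrow, and 153, 118 and 119 in whole marrow. It was 1.61-fold lower in ERG leukemia than in lineage-negative marrow (log2 difference -0.69 ± 0.15, limma adjusted p = 0.0268). That call was lost without leukemia array 2 or 3 or lineage-negative array 1 or 2, at adjusted p of 0.0633 to 0.0884, and its higher level than in whole marrow (0.54 ± 0.15, limma adjusted p = 0.0298) was lost without leukemia array 1 or 3 or whole marrow array 2 or 3, at 0.0752 to 0.0939. Mrps27, a small-subunit protein with helical RNA-binding repeats, read 78.2, 65.1 and 77.2 in ERG leukemia, 102, 131 and 101 in lineage-negative marrow, and 46.8, 41.6 and 47.0 in whole marrow. It was 1.51-fold lower in ERG leukemia than in lineage-negative marrow (log2 difference -0.59 ± 0.12, limma adjusted p = 0.022), a call missed at 0.052 with the whole marrow arrays left out of the model.

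Mrpl38, Mrpl49 and Mrps22 completed a set of 7 genes, with Mrpl16, Mrpl37, Mrpl50 and Mrps27, that differed in all 3 comparisons, with ERG leukemia between the wild type groups. Mrps22, a gene of human mitochondrial disease, read 184, 205 and 204 in ERG leukemia, 256, 348 and 268 in lineage-negative marrow, and 133, 129.9 and 141 in whole marrow. Its differences were -0.55 ± 0.12 from lineage-negative marrow (limma adjusted p = 0.0263) and 0.55 ± 0.12 from whole marrow (limma adjusted p = 0.0103). The call against lineage-negative marrow was lost without leukemia array 1 or 3 or lineage-negative array 3, at adjusted p of 0.0641, 0.0627 and 0.052. Mrpl49 differed from lineage-negative marrow by -0.48 ± 0.09 (limma adjusted p = 0.0138) and missed at 0.0526 without lineage-negative array 1. Mrpl38 differed by -0.51 ± 0.12 (limma adjusted p = 0.0375). Its call ended in 8 alternatives, among them leaving out any of leukemia arrays 2 and 3, lineage-negative arrays 1 and 2 and whole marrow arrays 1 and 3, at adjusted p of 0.0557 to 0.118.

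Mrps6 and Mrps25, both of the small subunit, were lower in ERG leukemia than in lineage-negative marrow and did not pass against whole marrow. Mrps6, a relative of bacterial S6, differed from lineage-negative marrow by -0.60 ± 0.15 (limma adjusted p = 0.0465) and from whole marrow by 0.45 ± 0.15 (limma adjusted p = 0.0634). Mrps25 differed by -0.39 ± 0.10 (limma adjusted p = 0.0429) and 0.24 ± 0.10 (limma adjusted p = 0.107). Both calls were the least firm: leaving out leukemia array 1 or 3, any of lineage-negative arrays 1 and 2, or whole marrow array 1 or 3 ended each, and Mrps25 was also lost without leukemia array 2 or lineage-negative array 3, with adjusted p reaching 0.148 for Mrps6 and 0.145 for Mrps25.

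Among the genes named in the first comparison that did not pass here, some had small differences. Mrpl52 differed from lineage-negative marrow by -0.18 ± 0.13 (limma adjusted p = 0.527), Mrps18a by -0.12 ± 0.10 (limma adjusted p = 0.588) and Mrps36 by -0.02 ± 0.15 (limma adjusted p = 0.963). Mrpl33 differed by 0.03 ± 0.19 (limma adjusted p = 0.961). Others were further from 0 without passing, such as Mrps28 at -0.56 ± 0.17 (limma adjusted p = 0.0807). Mrpl11 had a difference of -0.62 ± 0.18 without passing (limma adjusted p = 0.0752). In 5 genes, Mrpl24, Mrps9, Mrps12, Mrps16 and Mrps18c, ERG leukemia had the highest group mean, by at most 0.11 over lineage-negative marrow, and none of these 5 passed.

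The third comparison, between the wild type groups, shows how the family is distributed in normal marrow. Lineage-negative marrow had 69 of the 77 genes higher than whole marrow, 1 lower and 7 that did not pass, where 21.7% of all genes were higher and 13% lower in limma's test, 34.7% in either direction. The median log2 difference was 0.80, or 1.74-fold, with a range of -0.66 to 1.63, and the median of all genes was -0.03. The arrays did not overlap, with lineage-negative marrow above, for 71 genes, against 26.6% of all genes, and with it below for 1, against 23.4%. The large subunit had 46 of 50 higher and 1 lower and the small subunit had 22 of 26 higher. Without whole marrow array 2 the number higher was 64, and without lineage-negative array 2 it was 56. Leaving out whole marrow array 2 does not balance sex here, since the remaining whole marrow arrays have low Eif2s3y. This comparison and the first share the whole marrow arrays, so the 2 sets of values are not independent.

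Mrpl52 again had the largest value, 1.63 ± 0.13, a 3.09-fold higher level in lineage-negative marrow (limma adjusted p = 8.33e-05). Mrps18b was 3.03-fold higher (log2 difference 1.60 ± 0.19, limma adjusted p = 0.000324), Mrpl50 2.8-fold (1.48 ± 0.14, limma adjusted p = 0.000119) and Mrpl38 2.78-fold (1.48 ± 0.12, limma adjusted p = 8.45e-05). Mrps28 was 2.62-fold higher, with 155, 239 and 174 in lineage-negative marrow and 72.0, 73.6 and 67.2 in whole marrow (1.39 ± 0.17, limma adjusted p = 0.000393). None of these genes had overlapping groups. All 3 stalk genes passed here: Mrpl12 at 1.08 ± 0.14, Mrpl11 at 0.96 ± 0.18 and Mrpl10 at 0.36 ± 0.10, the last with a limma adjusted p of 0.0195 that was missed without lineage-negative array 1 or 2 or whole marrow array 3, at 0.0579 to 0.0697. Mrps12 passed narrowly, at 0.46 ± 0.16 (limma adjusted p = 0.049), and was lost in 10 alternatives, including without leukemia array 3, lineage-negative array 2 or 3 and whole marrow array 1 or 3, where the adjusted p ran from 0.066 to 0.163. Mrpl22, the gene with the widest spread within a group, read 74.0, 126 and 65.0 in lineage-negative marrow and 44.4, 38.0 and 40.3 in whole marrow (1.05 ± 0.21, limma adjusted p = 0.00478), and array 2 set its high value. The smallest differences that passed, besides Mrpl10, were 0.40 ± 0.11 for Mrpl24, 0.40 ± 0.10 for Mrps35 and 0.42 ± 0.12 for Mrpl1. All 3 missed the threshold without lineage-negative array 2, at adjusted p of 0.0777, 0.0635 and 0.0922. Mrpl24 also missed it without lineage-negative array 3 or whole marrow array 2 or 3, Mrps35 without whole marrow array 3, and Mrpl1 without lineage-negative array 1 or 3 or whole marrow array 1. Scaling mattered more. By cyclic loess Mrpl10 fell to 0.08, Mrpl24 to 0.11, Mrps35 to 0.17 and Mrpl1 to 0.14, at limma adjusted p of 0.249 to 0.613. Centring on the 75th percentile gave these genes 0.24 to 0.29, at limma adjusted p of 0.106 to 0.156.

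The 7 genes that did not pass, which were Mrpl14, Mrpl41, Mrpl43, Mrps9, Mrps16, Mrps18c and Mrps21, passed in no comparison. Mrps21 gave 447, 572 and 407 in lineage-negative marrow and 465, 410.4 and 428 in whole marrow, and Mrps18c gave 325, 389 and 302 in lineage-negative marrow and 343, 317 and 279.8 in whole marrow. Neither is a dim probe set. Mrpl14 had the largest value of the 7, 0.46 ± 0.16 (limma adjusted p = 0.0599). Mrpl33 was lower in lineage-negative marrow by 1.58-fold (log2 difference -0.66 ± 0.19, limma adjusted p = 0.0235), and leaving out lineage-negative array 2 or 3 or whole marrow array 1 or 2 ended the call at adjusted p of 0.0707 to 0.0814.

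Over the 9 arrays the genes varied together. The median Pearson correlation between pairs of the 77 genes was 0.848, with quartiles of 0.733 and 0.914, and 97.4% of pairs were positive. This is a description of 9 arrays that share the group differences above. With each gene centred within its group the median fell to 0.468. Measured against the mean of the other 76 genes, Mrps2, a relative of bacterial S2, followed the family most closely at 0.994, with Mrpl12 at 0.993 and Mrpl34 at 0.992. The lowest values were -0.688 for Mrpl33, 0.469 for Mrps21, 0.514 for Mrps9 and 0.537 for Mrps18c.

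A total of 8 genes had more than 1 probe set, and the brighter set was used. For Mrpl23, Mrpl51, Mrps5, Mrps33 and Mrps36 the sets gave like differences, such as 0.81 and 0.87 for Mrps5 between ERG leukemia and whole marrow. For Mrpl27, a relative of the bacterial protein at the peptidyl transferase centre, the set used gave 0.79 and the other 0.31. For Mrpl47 the set used gave 0.49 and the other 0.01, but the other was dim, with means of 17.4 in ERG leukemia, 18.1 in the lineage-negative pools and 17.3 in whole marrow, and averaging both sets gave 0.25 without a call (limma adjusted p = 0.119). Mrpl41 gave 0.03 and -0.06, and it passed no test with the set used.

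As a description, the differences were also split by promoter motif. The 25 genes with CCGGAAG had a median of 0.55 between ERG leukemia and whole marrow, with 14 higher, and the 43 without had 0.49, with 24 higher. Between ERG leukemia and lineage-negative marrow the medians were -0.14 with and -0.27 without. The 12 genes with AAGATGGC had a median of 0.67 between ERG leukemia and whole marrow, with 10 higher, against 0.48 and 28 of 56 without. None of these splits was tested.

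Other genes of mitochondrial gene expression, taken as lists by function, were also higher in ERG leukemia than in whole marrow in many cases, and none on these lists was lower. Of 26 assembly factors, which process and modify the ribosomal RNA and join the subunits, 13 were higher in ERG leukemia than in whole marrow and none lower, with a median of 0.36. Among them Mpv17l2, an inner membrane protein needed for ribosome assembly, differed by 1.08 ± 0.15 (limma adjusted p = 0.0018) and Mtg1, a GTPase of large-subunit assembly, by 0.93 ± 0.16 (limma adjusted p = 0.00462). The assembly count was 6 without leukemia array 1, 7 without leukemia array 3, 8 without whole marrow array 1, 7 without whole marrow array 2 and 8 without whole marrow array 3. Of 14 translation factors 9 were higher, with a median of 0.56, led by Tsfm, the exchange factor of the elongation factor Tu, at 0.99 ± 0.18 (limma adjusted p = 0.00531) and Mrrf, the ribosome recycling factor, at 0.94 ± 0.15 (limma adjusted p = 0.00272). The synthetase list holds mitochondrial aminoacyl-tRNA synthetases, which load transfer RNAs. It also holds Gatb, Gatc and Qrsl1, which are subunits of an amidotransferase acting on a loaded transfer RNA and are not synthetases. Of its 19 genes 11 were higher, Gatc among them, with a median of 0.54. Iars2, the isoleucine enzyme, was 2.72-fold higher (log2 difference 1.44 ± 0.16, limma adjusted p = 0.000884). Of 16 genes of mitochondrial DNA replication, transcription and RNA processing 12 were higher, with a median of 0.53, among them Prorp, the nuclease subunit of mitochondrial RNase P, at 1.08 ± 0.18. Of 5 genes listed as ribosomal proteins with other names 4 were higher, among them Gadd45gip1 by 0.71 ± 0.21 (limma adjusted p = 0.0399) and Ptcd3 by 0.69 ± 0.12 (limma adjusted p = 0.00436). That list includes Oxa1l, an inner membrane insertase that binds the ribosome and is not a ribosomal protein. Oxa1l was among the 4, at 0.37 ± 0.07 (limma adjusted p = 0.00471), a call missed in 2 alternatives. The call of Gadd45gip1 was missed in 11 of 16 alternatives, among them without leukemia array 2 or 3, whole marrow array 1 or 3 or any 1 lineage-negative array, at adjusted p of 0.0501 to 0.138. The count of 4 was 2 by centring on the 75th percentile, 1 by cyclic loess and 2 without leukemia array 2 or whole marrow array 3, and the same scalings gave 8 and 7 assembly factors.

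Against lineage-negative marrow, none of these lists had a gene that was higher in ERG leukemia. There were 6 of 26 assembly factors lower, 1 of 14 translation factors, 4 of 19 genes of the synthetase list and 5 of 16 replication and transcription genes. Their medians were -0.21, -0.38, -0.35 and -0.38, and 5.74% of all genes were lower. The translation factors, at 7.14%, were near that share. Fastkd2, which binds the large ribosomal RNA, differed by -0.81 ± 0.16 (limma adjusted p = 0.0208), which was 0.0521 without leukemia array 1. Tufm, the elongation factor Tu itself, differed by -0.58 ± 0.13 (limma adjusted p = 0.0334), a call missed without leukemia array 2 or 3 or lineage-negative array 1 or 2, at up to 0.105. Top1mt, the mitochondrial topoisomerase, differed by -0.62 ± 0.10 (limma adjusted p = 0.00859). These counts depended on single arrays too: each of leukemia arrays 2 and 3 and lineage-negative arrays 1 and 2, when left out, brought the assembly count to 2 or 3, the translation factor count to 0 and the synthetase count to between 0 and 2, and lineage-negative array 3 brought the assembly count to 3 and the synthetase count to 2. Without leukemia array 1 the translation factor count was 3. The replication and transcription count went to 2 or 3 on leaving out any of those 4 arrays or whole marrow array 1. In the wild type comparison the counts higher in lineage-negative marrow were 18 of 26, 13 of 14, 19 of 19 and 13 of 16, with none lower, where 21.7% of all genes were higher.

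**Figure D4:**
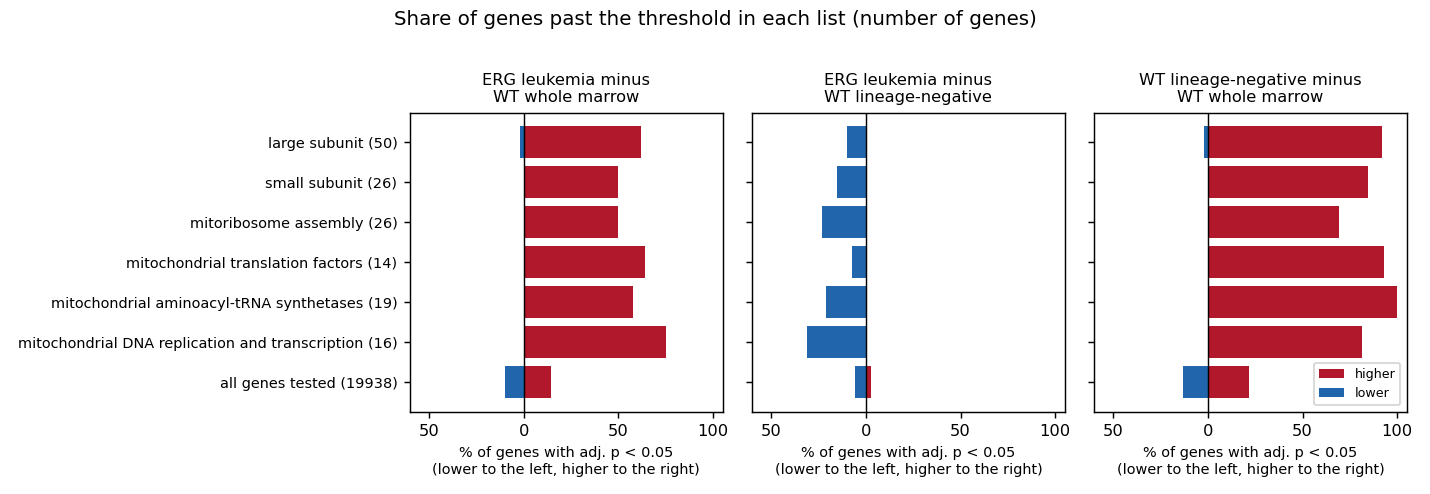
Percentage of the genes of each list that were higher (red, to the right) or lower (blue, to the left) at a limma adjusted p below 0.05 in the 3 comparisons, with the number of genes in brackets and all 19938 genes as the lowest bar. For ERG leukemia minus whole marrow the large subunit has 62% higher and the small subunit 50%, against 14.6% of all genes; for ERG leukemia minus lineage-negative marrow none of the 6 lists drawn has any gene higher.

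Regulators known to act on nuclear genes for mitochondria went both ways, with 2 of 11 higher and 2 lower in ERG leukemia than in whole marrow. That is 18.2% each way, against 14.6% higher and 9.93% lower among all genes. Counts this small do not set the list apart from all genes. Myc differed by 1.41 ± 0.11 (limma adjusted p = 0.000422) and Pprc1, a coactivator of NRF1 also called PRC, by 1.20 ± 0.18 (limma adjusted p = 0.0022). Ppargc1a, the coactivator of mitochondrial biogenesis, was lower, by -0.56 ± 0.12 (limma adjusted p = 0.00957), but its mean of 23.0 in ERG leukemia was under the dim mark. Max, the partner of Myc, was lower, by -0.57 ± 0.14 (limma adjusted p = 0.0173), which became 0.0564 without leukemia array 3 and 0.0519 without whole marrow array 1. Nrf1 at 0.12 ± 0.08, Gabpa at 0.12 ± 0.11 and Yy1 at 0.12 ± 0.07 did not pass, with limma adjusted p of 0.382, 0.525 and 0.271. Mycn was lower in ERG leukemia than in lineage-negative marrow, by -1.17 ± 0.12 (limma adjusted p = 0.0014). Its mean of 18.4 in ERG leukemia was under the dim mark, and that in lineage-negative marrow was 41.4.

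Cell type markers also differed between the groups, though not all of them in every comparison. Between ERG leukemia and lineage-negative marrow, 0 of 9 erythroid, 0 of 9 B cell and 0 of 9 T and NK cell markers passed. Their median log2 differences there were 0.07, 0.13 and 0.05. The summed intensity of 10 mature neutrophil markers was 12706 to 19002 in ERG leukemia, 596 to 1826 in lineage-negative marrow and 33044 to 39595 in whole marrow, with 7 of the 10 lower in ERG leukemia than in whole marrow and 9 higher than in lineage-negative marrow. The 9 B cell markers summed to 387 to 551 in ERG leukemia, 322 to 481 in lineage-negative marrow and 1238 to 5103 in whole marrow, and 6 of them had group means under the dim mark in ERG leukemia and 6 in lineage-negative marrow. The 9 T and NK cell markers summed to 255 to 392 in ERG leukemia, 407 to 618 in lineage-negative marrow and 699 to 1287 in whole marrow, with 5 of them under the dim mark in ERG leukemia and 4 in lineage-negative marrow. The 9 erythroid markers summed to 4853 to 8786 in ERG leukemia, 5024 to 7033 in lineage-negative marrow and 1365 to 4090.1 in whole marrow, with 6 of 9 higher in ERG leukemia than in whole marrow. The 8 stem and progenitor markers measured summed to 2028 to 3240.3 in ERG leukemia, 3013 to 4276 in lineage-negative marrow and 1356 to 1649.6 in whole marrow, and 4 of 8 were lower in ERG leukemia than in lineage-negative marrow. Against whole marrow 2 of the 8 were higher in ERG leukemia, Gata2 by 3.13 ± 0.32 and Slamf1 by 3.17 ± 0.37, and these carry the higher sum. Cd34 was lower, by -0.99 ± 0.28 (limma adjusted p = 0.0332), a call missed without leukemia array 2 or 3, lineage-negative array 3 or any 1 whole marrow array, and the median of the 8 was -0.26. The 10 DNA replication genes, a mark of dividing cells, summed to 8391 to 8820 in ERG leukemia, 9069 to 10537 in lineage-negative marrow and 5450.3 to 6568 in whole marrow. These sums had the same order as those of the mitoribosomal genes. Gene by gene, none of the 10 passed between ERG leukemia and lineage-negative marrow, with 3 positive and 7 negative differences. The part of these cell types and of cell division in the mitoribosomal differences was not tested.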

How the data were processed

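RNA of 9 bone marrow samples was measured on 9 arrays. The deposited intensity values, on a linear scale, were made by the authors with RMA in Partek, per the submitters' processing notes. RMA corrects background and forces the arrays to 1 distribution, so a change shared by most genes is not visible. Tool versions and the probes' build were not found in the labels or headers. The design foresaw values that might be linear, and they were log2-transformed without further normalization. Of 28853 probe sets, 21789 had 1 gene symbol in the platform's annotation, 1621 had several and 5443 had none. For genes with several probe sets, the one with the highest mean over the arrays was used, which left 19938 genes.

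Groups came from titles and source names. All comparisons were fitted in 1 model with limma's lmFit, contrasts.fit and eBayes (limma 3.58.1, R 4.3.3; 6 residual and 2.62 prior degrees of freedom), two-sided, with Benjamini-Hochberg adjustment over all genes and a threshold of 0.05. The steps were tested on simulated data. Each lineage-negative array averages 3 mice, so the p-values rest on a spread partly averaged over mice. No mouse gave marrow to both wild type groups, so their shared replicate numbers do not pair them.

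The genes and gene lists were chosen with earlier results of these data known. Genes named in the text were drawn mostly from a pool set by rule, and not every gene of the pool is named. Per comparison the pool held the 10 largest and 5 smallest differences past the threshold without overlap, and the minority direction. It also held genes with several probe sets, the 5 with the highest SD within a group, and a set of structural landmarks. From each other list it took the 2 genes with the largest difference past the threshold in each comparison. Which genes of the pool to name was not set by a rule. A few others were named after their values were seen: those with no call or an unusual group order, Mrpl14, Mrpl34, Mrpl45, Mrps2, Max, Nrf1, Gabpa, Yy1 and Ppargc1a. Promoters came from RefSeq (GRCm38.p6).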

Additional observations from a re-analysis of the deposited data

How the results depend on the processing

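Under 16 alternatives (17 for the wild type comparison), all 77 genes were refitted within the whole table. Of the 46 calls between ERG leukemia and whole marrow 32 held in every alternative, of the 9 between ERG leukemia and lineage-negative marrow 1 did, and of the 70 between lineage-negative and whole marrow 51 did. Cyclic loess, which evens out intensity-dependent shifts, gave the fewest higher calls, 35 for ERG leukemia against whole marrow and 51 for lineage-negative against whole marrow, and moved those median differences to 0.38 and 0.51. Centring on the 75th percentile gave 41 and 60, and moved the median of all genes to -0.10 and -0.16. With only the 2 groups compared in the model, the number lower was 0 for ERG leukemia against whole marrow and 4 against lineage-negative marrow. The other lists moved too: with only the 2 groups compared, ERG leukemia against whole marrow gave 9 assembly factors higher, and against lineage-negative marrow 2 assembly factors, 0 translation factors and 2 replication and transcription genes were lower. Percentile centring and cyclic loess each gave 3 of the last lower.

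Leaving out 1 array at a time gave 37 to 47 higher, 0 to 1 lower and medians of 0.47 to 0.55 for ERG leukemia against whole marrow; 3 to 9 lower, 0 higher and medians of -0.32 to -0.14 against lineage-negative marrow; and 56 to 69 higher, 0 to 1 lower and medians of 0.69 to 0.88 for lineage-negative against whole marrow. With the replicate number as a block the wild type comparison gave 69 higher and 1 lower, with a median of 0.80. Deviations of same-numbered arrays correlated at 0.31, -0.01 and -0.01.

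Over all 77 genes, the sign turned in at least 1 alternative for 5 genes in ERG leukemia against whole marrow, 13 in ERG leukemia against lineage-negative marrow and 4 in lineage-negative against whole marrow, and 0 of these had passed the test in that comparison. The values that follow are for the 42 genes that the naming rule picked, not all of which are named above. For ERG leukemia against whole marrow, Mrpl41 was -0.057 by percentile centring, -0.098 by cyclic loess and -0.016 by the mean of its probe sets, and cyclic loess gave Mrpl1 -0.061 and Mrpl10 -0.038. Against lineage-negative marrow, Mrps36 was 0.019 by percentile centring and 0.086 by cyclic loess, which gave Mrps24 0.0097. For lineage-negative against whole marrow, Mrps18c was -0.014 by percentile centring and -0.17 by cyclic loess. With 1 array left out, Mrpl1 ranged from -0.013 to 0.18 and Mrpl41 from -0.11 to 0.11 for ERG leukemia against whole marrow. Against lineage-negative marrow, Mrpl24 ranged from -0.037 to 0.14, Mrpl33 from -0.092 to 0.22, Mrpl27 from -0.23 to 0.027, Mrps9 from -0.18 to 0.16, Mrps12 from -0.11 to 0.12, Mrps36 from -0.14 to 0.070, Mrps24 from -0.17 to 0.021 and Mrps26 from -0.33 to 0.029. The cause of these moves was not tested.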
